A study of Rattus norvegicus with 6 samples.

Results

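The levels of 6 cell cycle genes were measured in primary rat bone marrow mesenchymal stem cells, stromal cells of the marrow that can form bone, cartilage and fat. The cells, labelled wild type (WT), were kept in serum-containing medium and plated for 6 hours on TiO2 nanotubes (100 nm) or on a smooth surface, and 3 libraries per surface were sequenced. Earlier results of these data were known when the genes were chosen. They were picked by rat Ensembl identifier as markers of cycling and of arrest, with no rule on their values. They are Mki67 (ENSRNOG00000028137), Top2a (ENSRNOG00000053047), Cdk1 (ENSRNOG00000000632), Ccnb1 (ENSRNOG00000058539), Pcna (ENSRNOG00000021264) and Cdkn1a (ENSRNOG00000000521). All 6 were found among the 19458 genes of the deposited table, and all 6 belonged to the 11865 genes that were tested because they averaged 1 or more FPKM, that is, sequenced fragments divided by the length of the gene model and by the library total. The table pairs no identifier with a symbol, so the symbols are those given with the identifiers when the genes were chosen. The labels give neither the strain, age and sex of the rats nor whether each library had a culture or an animal of its own, so p-values measure only how far these libraries differ, for technical reasons or others.

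Dividing cells copy their DNA in S phase and separate it in mitosis, and many genes needed for either step are transcribed more in cycling cells than in resting ones. Mki67 encodes Ki-67, which coats mitotic chromosomes, and Top2a encodes the topoisomerase that untangles the copied strands. Cdk1 encodes the kinase that drives entry into mitosis, and Ccnb1 encodes cyclin B1, the partner that activates it. Pcna encodes the sliding clamp that holds DNA polymerase on its template in replication and repair. Cdkn1a encodes p21, an inhibitor of cyclin-dependent kinases that also binds the Pcna clamp, and that is induced by p53 and by other signals that halt the cycle.

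The promoters of the 4 genes with the widest spread between libraries are shown because genes of mitosis often carry 2 short elements, known mainly from human and mouse genes. One is the box CCAAT, bound by NF-Y, which reads ATTGG on the other strand. The other is the cell cycle genes homology region, or CHR. It was searched as the letters TTTGAA, which read backwards on the other strand as the letters TTCAAA, and as the variant TTCGAA, which is the same on both strands. The windows run from 250 bases before the annotated gene start to 50 bases after it, 5′ to 3′ along the gene, from RefSeq (build GRCr8), matched by symbol for all 6 genes. Capitals mark both motifs. In the Mki67 window, chr1:199952544-199952843 on the minus strand, the second CHR match and the box after it share 1 base. The others lie at chr10:84473044-84473343 (minus strand) for Top2a, chr20:19265043-19265342 (plus strand) for Cdk1 and chr2:33655176-33655475 (minus strand) for Ccnb1.
Mki67: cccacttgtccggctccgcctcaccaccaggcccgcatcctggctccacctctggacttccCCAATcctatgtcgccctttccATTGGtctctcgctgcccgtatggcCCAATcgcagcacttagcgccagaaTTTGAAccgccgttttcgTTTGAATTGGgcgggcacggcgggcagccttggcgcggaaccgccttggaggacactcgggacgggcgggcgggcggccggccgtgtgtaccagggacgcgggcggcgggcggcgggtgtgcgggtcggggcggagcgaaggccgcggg
Top2a: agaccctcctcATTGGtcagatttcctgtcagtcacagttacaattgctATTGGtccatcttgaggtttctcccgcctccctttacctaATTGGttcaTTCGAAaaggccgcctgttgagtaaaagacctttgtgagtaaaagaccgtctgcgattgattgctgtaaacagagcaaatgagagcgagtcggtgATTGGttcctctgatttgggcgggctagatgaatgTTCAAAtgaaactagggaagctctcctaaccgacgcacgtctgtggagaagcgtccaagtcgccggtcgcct
Cdk1: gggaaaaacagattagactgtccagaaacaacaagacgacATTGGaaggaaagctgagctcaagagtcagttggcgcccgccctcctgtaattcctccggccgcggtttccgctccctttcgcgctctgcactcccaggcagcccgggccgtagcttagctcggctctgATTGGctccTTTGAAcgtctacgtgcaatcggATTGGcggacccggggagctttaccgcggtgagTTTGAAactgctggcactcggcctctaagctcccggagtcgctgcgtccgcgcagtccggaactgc
Ccnb1: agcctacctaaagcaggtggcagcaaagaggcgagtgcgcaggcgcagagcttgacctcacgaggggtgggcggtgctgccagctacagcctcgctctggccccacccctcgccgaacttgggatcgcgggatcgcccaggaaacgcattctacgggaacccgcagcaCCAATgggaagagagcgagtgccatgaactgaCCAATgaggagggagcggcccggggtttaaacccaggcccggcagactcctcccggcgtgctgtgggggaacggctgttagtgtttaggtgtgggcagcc

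The box occurred 4 times in the Mki67 and Top2a windows, 3 times in the Cdk1 window and 2 times in the Ccnb1 window. The CHR letters occurred 2 times each in the Mki67, Top2a and Cdk1 windows and not in that of Ccnb1. The Pcna window held 1 box and no CHR letters, and the Cdkn1a window held neither. Of all 33469 RefSeq windows of 300 bases, 37.5% held at least 1 box, 11.2% at least 2, 3.0% at least 3, and 19.7% the CHR letters, with 8.0% holding both. These matches describe letters in a window at the annotated start, which need not be the start used in these cells. They are not evidence of binding or of its absence.

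**Figure D1:**
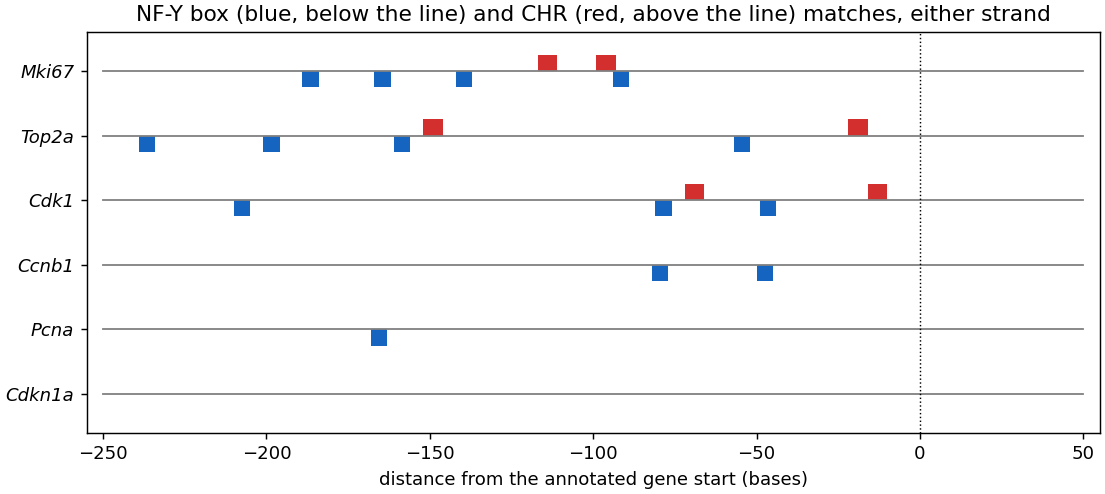
Motif matches in the 6 promoter windows, with the distance from the annotated gene start in bases on the x axis and 1 line per gene. Blue blocks below a line are the NF-Y box and red blocks above it the CHR, on either strand. The Mki67 and Top2a lines carry 4 blue and 2 red blocks each, the Pcna line a single blue block and the Cdkn1a line none.

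The libraries held 16299799 to 17624390 counted reads each, worked out from the FPKM values, and they did not group by surface. Between nanotube library 3 and smooth library 2, 86 of the 11865 tested genes were at least 2-fold apart on the log2(FPKM + 1) scale, against 786 and 613 between nanotube library 3 and nanotube libraries 1 and 2. Between smooth library 3 and smooth libraries 1 and 2 there were 211 and 109 such genes. The labels number only libraries 1 and 2 of a surface, and the number 3 is the name of a column in the table. Because cells were lysed in bulk, fewer cycling cells and less RNA per cycling cell cannot be told apart.

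The 5 genes of division varied together from library to library, and their order over the libraries did not follow the surface. Nanotube library 3, smooth library 2 and smooth library 3 held the 3 highest values of each of the 5 genes, and nanotube libraries 1 and 2 and smooth library 1 the 3 lowest. Mki67 had 6.56, 4.65 and 23.3 FPKM in nanotube libraries 1 to 3, against 6.41, 21.6 and 15.7 FPKM in smooth libraries 1 to 3. The highest library, nanotube library 3, thus lay 5.01-fold above the lowest, nanotube library 2, on the same surface. These values rested on 794 to 3901 reads, with counting errors (exact 95% Poisson intervals) of 3.2% to 7.0% to each side, so counting error was far smaller than the gap.

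Top2a showed the same alternation. It had 15.8, 10.8 and 41.4 FPKM in nanotube libraries 1 to 3, against 13.1, 42.2 and 28.6 FPKM in smooth libraries 1 to 3. The highest library, smooth library 2, was 3.91-fold above the lowest, nanotube library 2. Both surfaces held low and high libraries, and their ranges overlapped over most of their length.

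The kinase and its cyclin were nearly alike in level. In pattern they were no more alike than either was to Top2a. Cdk1 had 39.2, 24.5 and 87.9 FPKM in nanotube libraries 1 to 3, against 23.2, 89.6 and 60.5 FPKM in smooth libraries 1 to 3. Ccnb1 had 27.9, 23.2 and 87.3 FPKM in the nanotube libraries in that order, and 22.0, 89.6 and 58.2 FPKM in the smooth libraries. In both genes smooth library 1 was the lowest of the 6 and smooth library 2 the highest, 3.87-fold apart for Cdk1 and 4.08-fold for Ccnb1. The FPKM ratio of Cdk1 to Ccnb1 was 1.06 in nanotube library 2 and 1.01 in nanotube library 3, and 1.06, 1.0 and 1.04 in the smooth libraries, with exact 95% counting intervals that all included 1. Nanotube library 1 stood apart, with a ratio of 1.41 (counting interval 1.28 to 1.55).

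Pcna followed the same libraries with a smaller swing. It had 57.0, 46.9 and 106 FPKM in nanotube libraries 1 to 3, against 53.3, 114 and 84.4 FPKM in smooth libraries 1 to 3. Its highest and lowest libraries were 2.42-fold apart, against 5.01-fold for Mki67. The FPKM ratio of Pcna to Mki67 was therefore uneven, at 8.68, 10.1 and 4.56 in nanotube libraries 1 to 3, against 8.32, 5.25 and 5.38 in smooth libraries 1 to 3. It was lowest in the libraries where Mki67 was highest.

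**Figure D2:**
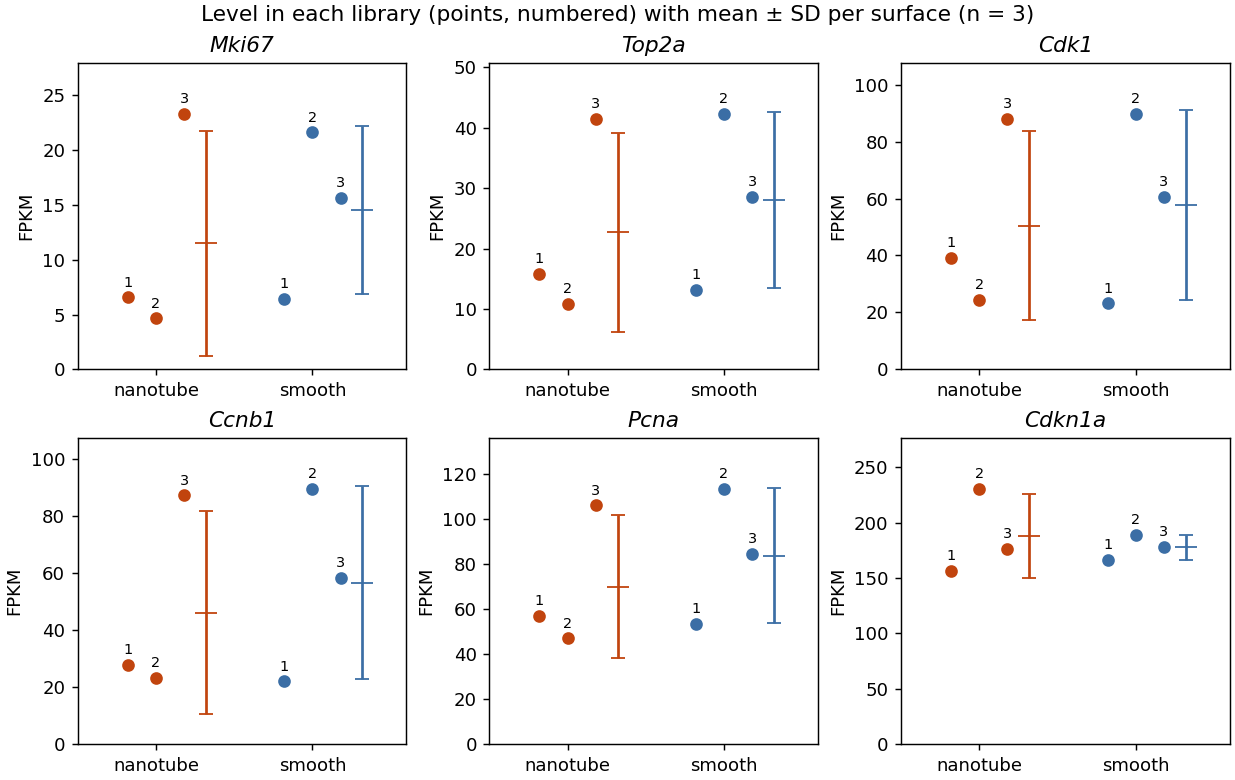
FPKM of each gene in each library, 1 panel per gene with its own axis from 0; points are libraries numbered as in the text, with nanotube left of smooth, and the bar beside them is the mean ± SD of the 3 libraries. In the 5 division genes nanotube library 3 lies beside smooth library 2 and apart from nanotube libraries 1 and 2, while the Cdkn1a points all lie between 157 and 231 FPKM.

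Cdkn1a, the inhibitor, was the most abundant of the 6 genes per length in every library and varied least. It had 157, 231 and 177 FPKM in nanotube libraries 1 to 3, against 166, 189 and 178 FPKM in smooth libraries 1 to 3. Nanotube library 2, where Mki67, Top2a and Pcna were lowest, had the highest Cdkn1a, and nanotube library 1 the lowest, 1.47-fold apart. The remaining 4 libraries lay within 166 to 189 FPKM, and these included nanotube library 3 and smooth library 2, where Mki67 was highest. Low division genes did not go with high Cdkn1a in general. Nanotube library 1 and smooth library 1 were low in the division genes and had the lowest Cdkn1a FPKM. After the scaling described below, their Cdkn1a was 169 and 170, no lower than the 167 of nanotube library 3.

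The balance between inhibitor and division genes consequently differed more between libraries of 1 surface than between surfaces. The FPKM ratio of Cdkn1a to Mki67 was 23.9, 49.6 and 7.58 in nanotube libraries 1 to 3, against 26.0, 8.73 and 11.4 in smooth libraries 1 to 3. The ratio of Cdkn1a to Pcna, its binding partner, was 2.75, 4.92 and 1.66 in the nanotube libraries, and 3.12, 1.66 and 2.11 in the smooth libraries, in the same order. Nanotube library 2 had the highest and nanotube library 3 and smooth library 2 the lowest of both ratios.

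The order of the genes by FPKM was the same in all 6 libraries: Cdkn1a, then Pcna, Cdk1, Ccnb1, Top2a and Mki67. Cdk1 and Ccnb1 are neighbours that differed beyond counting error in nanotube library 1 alone. The gene models worked out from the FPKM values were 9880 bases long for Mki67, 5589 for Top2a, 1411 for Cdk1, 1606 for Ccnb1, 1160 for Pcna and 1950 for Cdkn1a. The long model of Mki67 gave it up to 3901 reads at the lowest FPKM of the 6 genes.

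No difference between the surfaces passed the test for any of the 6 genes. Mki67 averaged 11.5 ± 10.3 FPKM on nanotubes and 14.6 ± 7.7 FPKM on the smooth surface (SD, n = 3 libraries each). On the log2 scale the change of nanotube over smooth was -0.48 with a standard error of 0.63 (limma, Benjamini-Hochberg adjusted p = 0.901 over all tested genes). The 95% interval of that fold change ran from -1.98 to 1.03, that is 0.253-fold to 2.04-fold, so a change of 2-fold in either direction lay inside it. Over all 11865 tested genes, 0 (0%) passed an adjusted p of 0.05 and 724 (6.10%) an unadjusted p of 0.05, and 0 of the 6 genes passed either.

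The other division genes gave the same picture. Top2a averaged 22.7 ± 16.4 FPKM on nanotubes and 28.0 ± 14.6 FPKM on the smooth surface, a log2 fold change of -0.37 with a 95% interval of -1.73 to 0.997. Cdk1 averaged 50.5 ± 33.2 and Ccnb1 46.1 ± 35.7 FPKM on nanotubes, and on the smooth surface Cdk1 averaged 57.8 ± 33.3 and Ccnb1 56.6 ± 33.9 FPKM (SD, n = 3 libraries each). Their log2 fold changes were -0.19 (95% interval -1.64 to 1.26) for Cdk1 and -0.33 (-1.88 to 1.22) for Ccnb1. Pcna averaged 70.0 ± 31.7 FPKM on nanotubes and 83.7 ± 30.1 FPKM on the smooth surface, a log2 fold change of -0.28 (-1.17 to 0.62). The limma adjusted p was between 0.904 and 0.960 for these 4 genes. The 5 division genes all had the lower mean on nanotubes, as did 59.5% of all tested genes. Their directions are not independent of each other, since all 5 genes shared the same high and low libraries.

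Cdkn1a gave the narrowest limits. It averaged 188 ± 38 FPKM on nanotubes and 178 ± 11 FPKM on the smooth surface (SD, n = 3 libraries each), with a log2 fold change of 0.06 ± 0.16 (SE, limma adjusted p = 0.948). The 95% interval, -0.32 to 0.45, corresponds to 0.801-fold to 1.36-fold. A change of 2-fold between the surfaces thus lay outside the interval for Cdkn1a, if the libraries are as labelled and independent.

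**Figure D3:**
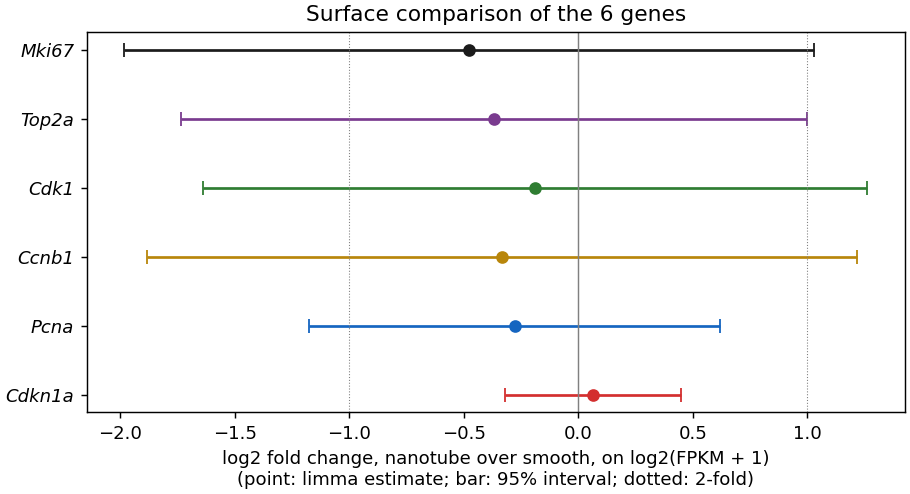
Log2 fold change of nanotube over smooth for the 6 genes, on log2(FPKM + 1), with points for the limma estimate and bars for its 95% interval; dotted lines mark 2-fold. All 6 bars cross 0, and those of Top2a, Pcna and Cdkn1a do not reach a 2-fold higher level on nanotubes, Top2a by a small margin.

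The groups overlapped for all 6 genes, as they did for most tested genes. Of the tested genes, 12.2% had surfaces that did not overlap, so overlap does not set the 6 genes apart. The exact two-sided permutation p of the mean difference was 0.6 for Pcna, 0.7 for Top2a, 0.8 for Mki67 and 0.9 for Cdk1, Ccnb1 and Cdkn1a, where the smallest p that 3 against 3 libraries allow is 0.1. Of the variance of log2(FPKM + 1), the surface took 8.09% for Mki67, 8.06% for Pcna, 6.04% for Top2a, 3.88% for Ccnb1, 3.24% for Cdkn1a and 1.47% for Cdk1. The median over all tested genes was 14.9%. The rest of the variance of each gene lay between libraries of the same surface.

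The estimates moved with several single libraries. Without nanotube library 3, Mki67 had a log2 fold change of -1.11 (95% interval -2.31 to 0.10, limma adjusted p = 0.297), from 2 nanotube and 3 smooth libraries. Top2a and Ccnb1 were then at -0.90 and -0.91, Cdk1 at -0.68 and Pcna at -0.62, and Cdkn1a at 0.10, with no adjusted p under 0.297 among the 6. Without smooth library 1 the division genes moved about as far, to -0.94 for Mki67, -0.81 for Top2a, -0.73 for Cdk1, -0.89 for Ccnb1 and -0.57 for Pcna, with Cdkn1a at 0.02. The 2 fits were not alike over the whole table. Genes with an unadjusted limma p under 0.05 numbered 2200 without nanotube library 3 and 423 without smooth library 1. They numbered 724 with all 6 libraries, and 237 to 532 without any single library other than nanotube library 3. Without nanotube library 2 the estimates of Top2a, Cdk1, Ccnb1 and Cdkn1a changed sign, to 0.02, 0.22, 0.02 and -0.09, and without smooth library 2 those of Cdk1 and Ccnb1 did, to 0.22 and 0.10.

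The pair of libraries that lay closest as wholes was also close in these genes, across the surfaces. The ratio of nanotube library 3 to smooth library 2 in share of reads was 1.08 for Mki67 (exact 95% counting interval 1.03 to 1.13), 0.981 for Top2a (0.938 to 1.03), 0.981 for Cdk1 (0.923 to 1.04) and 0.974 for Ccnb1 (0.920 to 1.03). It was 0.935 for Pcna (0.880 to 0.993) and 0.936 for Cdkn1a (0.902 to 0.970). Top2a, Cdk1 and Ccnb1 were thus not distinguishable at this depth between these libraries, and the estimates of the other 3 genes differed by less than 10%. Between nanotube library 2 and nanotube library 3 the ratio was 0.20 for Mki67 (0.185 to 0.215) and 0.442 for Pcna (0.409 to 0.478).

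Smooth library 3 lay between the other 2 smooth libraries in every one of the 6 genes. On a scale with smooth library 1 at 0 and smooth library 2 at 1, its FPKM lay at 0.61 for Mki67, 0.56 for Cdk1, 0.54 for Ccnb1, 0.53 for Top2a and Cdkn1a, and 0.52 for Pcna. These positions fell within 0.52 to 0.61 although the 5 division genes spanned 2.13-fold to 4.08-fold between those libraries and Cdkn1a 1.13-fold. Counting error leaves the Cdkn1a position loose, at 174 to 183 FPKM in smooth library 3, against 166 FPKM in smooth library 1 and 189 FPKM in smooth library 2. Over all tested genes, 590 were at least 2-fold apart between smooth libraries 1 and 2, against 211 and 109 for smooth library 3 with each. How many tested genes place smooth library 3 between the others was not counted.

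The spread of the division genes was wide for this table. On log2(FPKM + 1), 5 of the 6 genes were at least 2-fold apart between their highest and lowest library, as were 17.0% of the tested genes. The range was 2.11 for Mki67, matched or exceeded by 302 genes (2.55%), and 1.98 for Ccnb1, 1.91 for Cdk1 and 1.87 for Top2a, matched or exceeded by 3.14%, 3.46% and 3.63%. Pcna had a range of 1.26, matched or exceeded by 10.3% of tested genes. Cdkn1a had a range of 0.56, close to the median of 0.54.

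**Figure D4:**
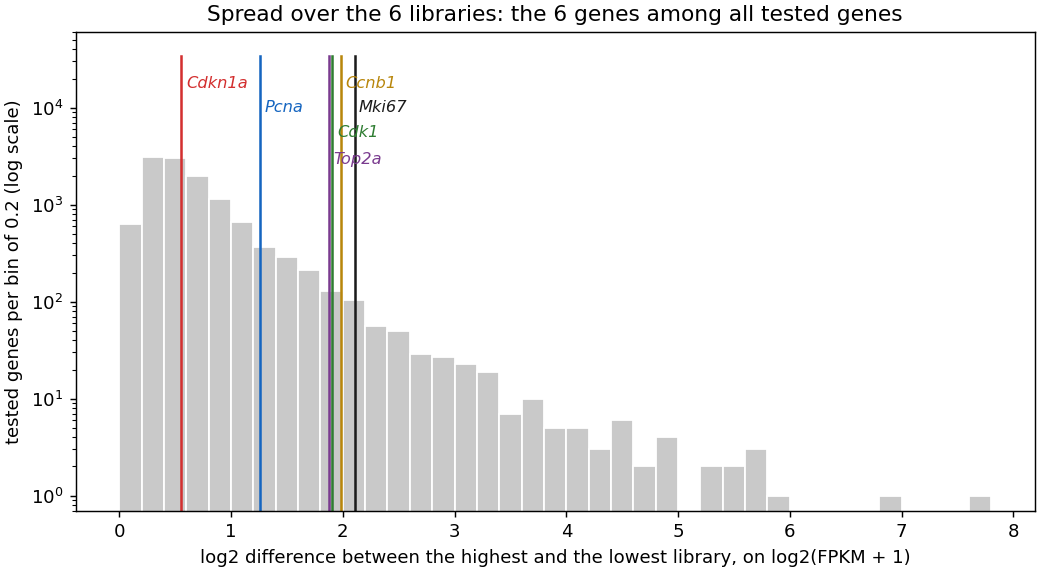
Distribution over the 11865 tested genes of the log2 difference between the highest and lowest of the 6 libraries, on log2(FPKM + 1), with the number of genes per bin on a log axis and a vertical line for each of the 6 genes. Mki67, Ccnb1, Cdk1 and Top2a lie between 1.87 and 2.11, in the right tail, Pcna at 1.26 and Cdkn1a at 0.56 near the middle.

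Profiles were compared by the root mean square difference of log2(FPKM + 1), each gene centred on its own mean over the 6 libraries. Mki67 was 0.122 from Top2a, 0.147 from Ccnb1, 0.229 from Cdk1, 0.356 from Pcna and 0.884 from Cdkn1a, where a flat line lay 0.837 away. Top2a was the 9th nearest of all tested genes to Mki67, Ccnb1 the 19th, Cdk1 the 52nd, Pcna the 147th and Cdkn1a the 8750th. Cdk1 and Ccnb1 were 0.164 from each other, and each was 0.144 from Top2a. Besides Mki67 itself, 39 tested genes lay within 0.2 of its profile. The nearest was ENSRNOG00000014080 at 0.042, with 10.8, 8.49 and 37.9 FPKM in nanotube libraries 1 to 3, against 11.3, 37.2 and 26.7 FPKM in smooth libraries 1 to 3. The gene nearest to Cdkn1a was ENSRNOG00000001803 at 0.045, with 70.0, 99.3 and 84.4 FPKM in nanotube libraries 1 to 3, against 74.8, 85.5 and 79.9 FPKM in smooth libraries 1 to 3. Neither identifier is paired with a symbol in the sources used here.

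**Figure D5:**
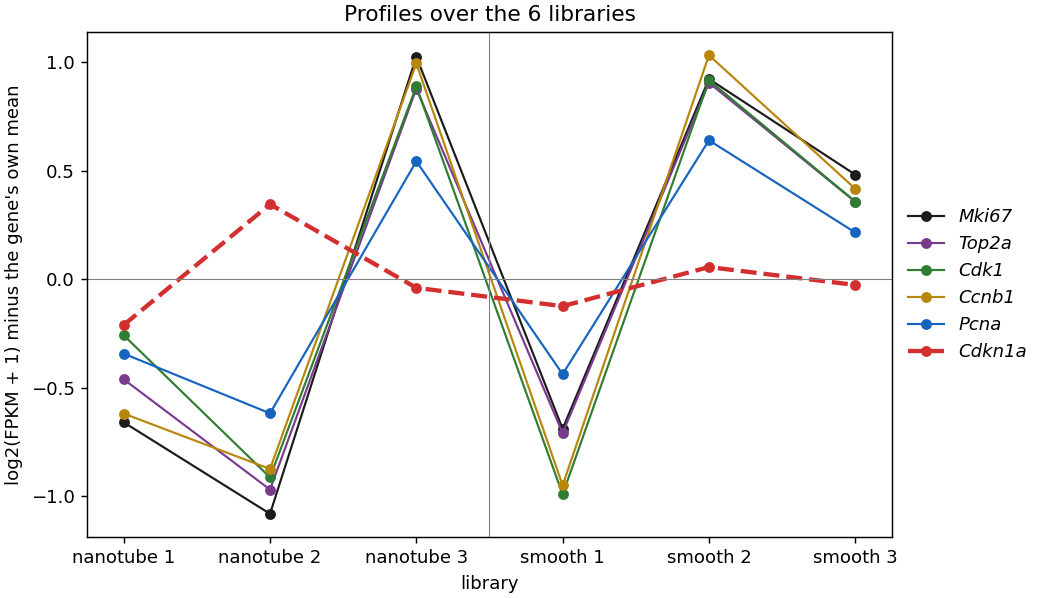
Log2(FPKM + 1) of each gene minus its own mean in the 3 nanotube libraries and then the 3 smooth libraries, with lines joining the values of 1 gene only to guide the eye. The 5 division genes peak together in nanotube library 3 and smooth library 2, with smooth library 3 below them, while Cdkn1a (dashed) has its peak in nanotube library 2.

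The make-up of the libraries differed between those high and those low in the division genes. The 10 most abundant genes took the smallest shares of reads in nanotube library 3 (8.35%), smooth library 2 (7.97%) and smooth library 3 (9.34%), where the division genes were highest, and 10.05% to 13.61% in the remaining 3 libraries. Median-of-ratios size factors were likewise above 1 in nanotube library 3, smooth library 2 and smooth library 3, at 1.06, 1.06 and 1.03, and 0.928 to 0.977 in the remaining ones. Within the remaining libraries neither measure followed the division genes. Nanotube library 1, the highest of them in these genes, had the largest share (13.61%) and the smallest factor (0.928). After scaling by these factors the highest and lowest libraries were still 4.59-fold apart for Mki67, 3.56-fold for Top2a, 3.55-fold for Cdk1, 3.75-fold for Ccnb1 and 2.21-fold for Pcna. Scaled Cdkn1a was 169, 238 and 167 in nanotube libraries 1 to 3, against 170, 177 and 173 in smooth libraries 1 to 3. Its highest and lowest libraries were then 1.43-fold apart, with nanotube library 3 the lowest. Whether the make-up of the libraries had a part in the levels of these genes beyond that scaling was not tested. Depth did not follow the division genes, with 16770616 to 17382519 reads in the 3 libraries where they were highest and 16299799 to 17624390 in the others.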

How the data were processed

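The authors deposited 1 table of FPKM values for 19458 rat Ensembl genes, with 1 column per library and 0 further columns. Per the submitters' processing notes, the tools included HISAT2 2.1.0, Bowtie 1.0.1 and HTSeq, with no roles stated, and the builds were the mouse builds mm10 and GRCm38. For the rat build, strand setting and filters the sources used here give no statement. How reads of overlapping or near-identical genes were counted is therefore not known. Per the labels' protocols, libraries were made from Trizol-extracted total RNA with a NEBNext Ultra kit.

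Whole reads, gene-model lengths and library totals were worked out from the FPKM values. Every one of the 116748 values came out whole (relative tolerance 1e-11). A model length that shares a factor with all its reads comes out too short, and the recovered reads were 99.74% to 99.77% of the totals. They set counting errors only, which cover no other error.

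The surfaces were compared on log2(FPKM + 1) with limma 3.58.1 in R 4.3.3, using its trended variance prior, all 6 libraries and the 11865 genes that averaged 1 FPKM or more, with Benjamini-Hochberg adjustment over all of them. This scale understates the change of low genes. Both this fit and the recovery of reads were tested on simulated data. The simulated libraries of a surface varied less than the division genes did here, so the test of the fit does not cover that spread. Exact tests used scipy 1.17.1. The genes, lists and alternatives were chosen with earlier results of these data known. Named genes were the 6 genes and, since 0 of the 47357 reference genes carry a rat Ensembl identifier, the single nearest profile to Mki67 and to Cdkn1a. For the same reason the lists of further cell cycle genes and of cell type markers were not tested, and the labelled cell type was not checked against markers. The labels do not show that libraries of the same number belong together, so no pairing by number was assumed. Deviations from the surface means correlated at 0.32, -0.21 and 0.06 for replicate numbers 1, 2 and 3. These values cannot decide the question, since the deviations of 3 libraries from their own mean are not independent.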

Additional observations from a re-analysis of the deposited data

How the results depend on the processing

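In all 16 alternatives 0 of the 6 genes differed between the surfaces (limma, Benjamini-Hochberg adjusted p of 0.297 or more). Leaving out 1 library at a time, the log2 fold change ranged from -1.11 to -0.06 for Mki67, -0.90 to 0.02 for Top2a, -0.73 to 0.22 for Cdk1, -0.91 to 0.10 for Ccnb1, -0.62 to -0.03 for Pcna and -0.09 to 0.18 for Cdkn1a. The 6 changes of sign were all among these fits: Top2a (0.024), Cdk1 (0.22), Ccnb1 (0.02) and Cdkn1a (-0.094) without nanotube library 2, and Cdk1 (0.22) and Ccnb1 (0.10) without smooth library 2. The genes called over the whole table numbered 0 to 1 in these fits and 0 in the other 10 alternatives. Other pseudocounts (0.1 and 5), other filters (none and 5 FPKM), scaling, an untrended prior and voom on the recovered reads gave Mki67 between -0.54 and -0.33, Top2a between -0.39 and -0.31, Cdk1 between -0.20 and -0.13, Ccnb1 between -0.34 and -0.28, Pcna between -0.28 and -0.22 and Cdkn1a between 0.06 and 0.12. The 0.12 of Cdkn1a, against 0.06 in the report, came with median-of-ratios scaling.

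With the replicate block Mki67 was at -0.48 over 6 libraries and at -0.99 over the 4 numbered libraries (limma adjusted p = 0.842 and 0.564), and at -0.99 without the block on those 4. The block changed no call. Counting errors of the 5 division genes were at most 8.6% to each side, far below their spread between libraries of a surface. No fit varied depth, so its part in the width of the intervals was not tested.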
